A study of Mus musculus with 6 samples.

Results

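A set of 10 genes that let a cell detect RNA or DNA in its cytosol, or that restrain that detection, was followed across 6 mouse RNA-seq libraries. They were chosen by name and role as 10 of the 35856 genes in the summed table: the RNA receptors Ddx58, Ifih1 and Dhx58, the Z-form nucleic acid sensor Zbp1, the DNA sensor Cgas, the adaptors Mavs and Tmem173, the RNA-activated kinase Eif2ak2, and the brakes Adar and Trex1. Of the 10 genes, 8 were higher in all 3 libraries labelled Mdm2 deleted than in all 3 labelled vehicle, by 2.15-fold for Cgas to 20.4-fold for Zbp1. The RNA of both adaptors was not called different, and none of the 10 genes was called lower. Of all 15933 genes tested, 27.7% had every labelled deleted library above every vehicle library, 25% were called higher by edgeR and 24.6% were called lower. The 10 genes were chosen with earlier results of these data known, so these shares are not an unbiased comparison.

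The study deleted Mdm2, which encodes a ubiquitin ligase that restrains p53, in cells that lack p53, and compared gene expression. All cells carried 2 floxed Mdm2 alleles and no p53 (Mdm2fl/fl p53-/-), and all were infected with a retrovirus for CreERT2 with GFP or for GFP alone. The labels do not say which virus the cells of each library received. CreERT2 is a Cre recombinase that 4-hydroxytamoxifen (4-OHT) switches on. The library labelled fibroblast, Mdm2 deleted came from adult ear-punch fibroblasts given 4-OHT (1 mM, as labelled) for 48 h, and its vehicle partner from the same kind of cell given ethanol for 48 h. The library labelled sarcoma, Mdm2 deleted came from a tumour in short-term culture given 4-OHT (1 mM, as labelled) for 48 h. Its vehicle partner was given ethanol for 48 h. The library labelled lymphoma, Mdm2 deleted came from a T cell lymphoma in short-term culture given 4-OHT (1 mM, as labelled) for 6 h. Its vehicle partner was given ethanol for 6 h. Each of the 6 groups holds 1 library, and the age and number of the animals are not given in the sources used here. As no 4-OHT library is marked as GFP-only cells, the effects of deletion and of 4-OHT cannot be told apart. Apart from the names of the cell types, no label records separate cultures, so the p-values reflect only how much these libraries vary, and that variation may be technical.

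The libraries held 26243064 to 37517726 estimated counts each. The targeted gene did not follow its label: in the labelled deleted libraries Mdm2 stood at 30.5, 31.1 and 31.1 CPM (counts as a share of the library, scaled by the TMM method), and in the vehicle libraries at 28.4, 28.0 and 28.5 CPM (log2 fold change 0.13 ± 0.05 SE, edgeR adjusted p = 0.0539). Values by library are always given in the order fibroblast, lymphoma, sarcoma. This sum covers all Mdm2 targets, and the labels do not say which exons were floxed, so RNA that lacks only some exons would still be counted. The labelled lymphoma libraries did not carry a T cell profile. Among 10 T cell markers, Cd3d, Cd3e and Cd247 had 0 counts in all 6 libraries (a count of 0 allows up to 3 counts) and only Lck reached 1 CPM, whereas 7 of 8 mesenchymal markers reached 1 CPM. For these reasons each group is called the library labelled with its name. Libraries of one arm differed from each other by more than counting noise, with a median chi-square over genes of 1.36 to 3.21 times the value that noise gives. None was therefore treated as an exact copy of another, but this measure cannot show whether they came from separate cultures. Libraries of one arm were still alike in markers. The mesenchymal list summed to 7462, 7623 and 7564 CPM in the labelled deleted libraries and to 13140, 13350 and 13600 CPM in the vehicle libraries. The 3 pairs therefore cannot be read as 3 distinct cell types.

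Cytosolic sensors recognise nucleic acids by shape and place. RIG-I (Ddx58) binds short double-stranded RNA ends that carry a triphosphate, and MDA5 (Ifih1) coats long double-stranded RNA. Both then act through the mitochondrial adaptor MAVS to switch on type I interferon. Double-stranded DNA in the cytosol is bound by cGAS (Cgas), which makes a cyclic dinucleotide that activates STING (Tmem173). Many genes of this system are themselves induced by interferon, which acts through response elements in their promoters, whereas ADAR and TREX1 keep the cell's own RNA and DNA from setting it off.

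Promoter windows were examined because 8 of the genes were higher together and both adaptors were not called different. RefSeq windows on GRCm38.p6, each running from 250 bases before to 50 bases after a start site, were matched by symbol for 7 of the 10 genes. Dhx58, Zbp1 and Tmem173 had no window, so Mavs was the only adaptor searched. Adar had 3 windows and Trex1 had 2, so counts of genes and shares of all windows differ in unit. The searched core of the interferon-stimulated response element was GAAANNGAAA on either strand. It was found for 3 of the 7 genes, Ddx58, Ifih1 and Eif2ak2, and in 3.44% of all 32851 windows. With 1 more base (GAAANNGAAAC) the same 3 genes matched, and 0.819% of all windows did. A shorter core (GAAANNGAA), chosen after the promoters had been seen and contained within the other cores, also matched the third of 3 Adar windows and 8.56% of all windows. None of these cores was found in the windows of Mavs, Cgas or Trex1. A match describes letters in a window and is not evidence of binding.

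Cgas and Trex1 were called higher, and their windows, which held no match, are not printed. The windows with a match are printed with that of Mavs, an adaptor whose RNA was not called different. They are read 5′ to 3′ on the strand of the gene, and capitals mark each match to the shorter core on either strand. The windows are chr4:40239776-40240075 on the minus strand for Ddx58, chr2:62646206-62646505 on the minus strand for Ifih1, chr17:78882523-78882822 on the minus strand for Eif2ak2, chr3:89730468-89730767 on the plus strand for Adar and chr2:131233813-131234112 on the plus strand for Mavs.
Ddx58: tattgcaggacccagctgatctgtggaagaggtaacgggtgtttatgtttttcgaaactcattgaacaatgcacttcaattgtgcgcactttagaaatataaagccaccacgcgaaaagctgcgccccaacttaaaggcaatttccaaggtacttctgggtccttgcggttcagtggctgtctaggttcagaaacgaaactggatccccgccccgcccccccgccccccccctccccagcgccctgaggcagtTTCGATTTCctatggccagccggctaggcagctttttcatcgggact
Ifih1: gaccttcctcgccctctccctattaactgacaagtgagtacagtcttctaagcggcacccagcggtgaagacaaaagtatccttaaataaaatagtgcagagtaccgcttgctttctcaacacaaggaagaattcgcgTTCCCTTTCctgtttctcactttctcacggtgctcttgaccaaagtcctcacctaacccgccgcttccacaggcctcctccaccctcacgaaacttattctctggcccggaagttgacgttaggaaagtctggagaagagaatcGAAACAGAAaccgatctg
Eif2ak2: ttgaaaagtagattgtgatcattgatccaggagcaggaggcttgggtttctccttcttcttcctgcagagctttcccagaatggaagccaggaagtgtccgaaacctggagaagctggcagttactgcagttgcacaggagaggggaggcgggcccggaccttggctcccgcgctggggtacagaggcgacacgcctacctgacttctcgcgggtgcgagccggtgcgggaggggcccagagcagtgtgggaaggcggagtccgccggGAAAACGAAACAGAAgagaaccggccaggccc
Adar: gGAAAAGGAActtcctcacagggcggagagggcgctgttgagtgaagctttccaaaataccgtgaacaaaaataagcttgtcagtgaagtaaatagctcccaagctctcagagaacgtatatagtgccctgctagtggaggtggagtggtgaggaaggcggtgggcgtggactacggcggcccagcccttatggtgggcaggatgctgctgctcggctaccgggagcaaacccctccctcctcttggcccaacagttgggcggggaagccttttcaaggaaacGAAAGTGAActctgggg
Mavs: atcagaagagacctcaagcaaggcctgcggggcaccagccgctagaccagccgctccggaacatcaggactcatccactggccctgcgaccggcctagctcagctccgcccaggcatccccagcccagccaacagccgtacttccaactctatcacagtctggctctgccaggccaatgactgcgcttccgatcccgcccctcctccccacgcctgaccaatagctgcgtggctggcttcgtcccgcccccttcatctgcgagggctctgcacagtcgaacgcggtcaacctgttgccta
The 10-base core began 2 bases after the start base in Ddx58, 32 bases after it in Ifih1 and 18 bases after it in Eif2ak2. In all 3 genes it therefore lay in the first 50 transcribed bases.

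The double-stranded RNA receptors were all higher in the libraries labelled deleted. Ddx58 (ENSMUSG00000040296.15, GRCm38 chromosome 4, 40203773 to 40239828, minus strand) stood at 304, 302 and 312 CPM in the labelled deleted libraries and at 68.6, 66.5 and 70.8 CPM in their vehicle partners. The 3 labelled deleted libraries lay close together and far above the vehicle range. The shared difference was 4.46-fold (log2 fold change 2.16 ± 0.04 SE, edgeR quasi-likelihood test with Benjamini-Hochberg adjustment over all genes, adjusted p = 4.15e-12). Ifih1 (ENSMUSG00000026896.14, chromosome 2, 62595798 to 62646255, minus strand) stood in the same order at 175.5, 175.2 and 181 CPM against 20.9, 21.8 and 21.2 CPM. Its arms did not overlap, and it was 8.33-fold higher (log2 3.06 ± 0.05 SE, edgeR adjusted p = 3.44e-13). Because Ifih1 moved further than Ddx58, the ratio of their levels per length (TPM, a share of transcripts) went from 0.279 ± 0.014 Ifih1 per Ddx58 in the vehicle arm to 0.520 ± 0.0021 in the labelled deleted arm (SD, n = 3 each).

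Dhx58 encodes LGP2, a receptor of the same helicase family that lacks the signalling domains of the other two and modulates them. Dhx58 (ENSMUSG00000017830.15, chromosome 11, 100694884 to 100704271, minus strand) stood at 132.5, 127 and 124 CPM in the labelled deleted libraries, against 22.3, 22.6 and 26.0 CPM. The vehicle library labelled sarcoma was the highest of its arm and its labelled deleted partner the lowest of the other arm. The arms remained apart by a wide margin. The shared difference was 5.40-fold (log2 2.43 ± 0.06 SE, edgeR adjusted p = 2.67e-11). The antisense gene Dhx58os overlaps it, held between 15 and 30 counts in each of the 6 libraries and was also called higher (log2 0.72, edgeR adjusted p = 0.0315). The strand setting of the counting is not given in the sources used here, and Dhx58 itself held 636 to 3907 counts per library.

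Among the 10 genes the widest difference was in Zbp1, which encodes a sensor of left-handed Z-form RNA and DNA that can start necroptosis through RIPK3. Zbp1 (ENSMUSG00000027514.14, chromosome 2, 173206612 to 173218923, minus strand) stood at 102, 98.4 and 96.9 CPM in the labelled deleted libraries and at 4.00, 4.52 and 5.82 CPM in the vehicle libraries. The labelled deleted libraries lay within a narrow range, while the vehicle libraries spread by 1.45 times, the largest spread within an arm among the genes called higher. The shared difference was 20.4-fold (95% interval 17.9 to 23.3, log2 4.35 ± 0.09 SE, edgeR adjusted p = 3.65e-12), and its log2 fold change ranked 53 of the 15933 genes tested. Within pairs the ratio was 25.5 (95% counting interval 21.1 to 31.01) for fibroblast, 21.7 (18.3 to 26.1) for lymphoma and 16.7 (14.5 to 19.2) for sarcoma. Pair intervals cover counting error only, and with 1 library per group the differences between pairs carry no test.

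Cgas, the sensor of cytosolic DNA, was higher as well. Cgas (ENSMUSG00000032344.17, chromosome 9, 78430526 to 78443237, minus strand) stood at 18.01, 18.4 and 18.9 CPM in the labelled deleted libraries, against 9.27, 7.63 and 8.84 CPM. The arms did not overlap, and the labelled deleted libraries again lay closer together than the vehicle libraries. The shared difference was 2.15-fold (log2 1.10 ± 0.08 SE, edgeR adjusted p = 3.33e-07), the smallest among the genes called higher. In the fibroblast pair the ratio was 1.94 (1.67 to 2.26), and it was 2.41 in the lymphoma pair and 2.13 in the sarcoma pair.

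**Figure D1:**
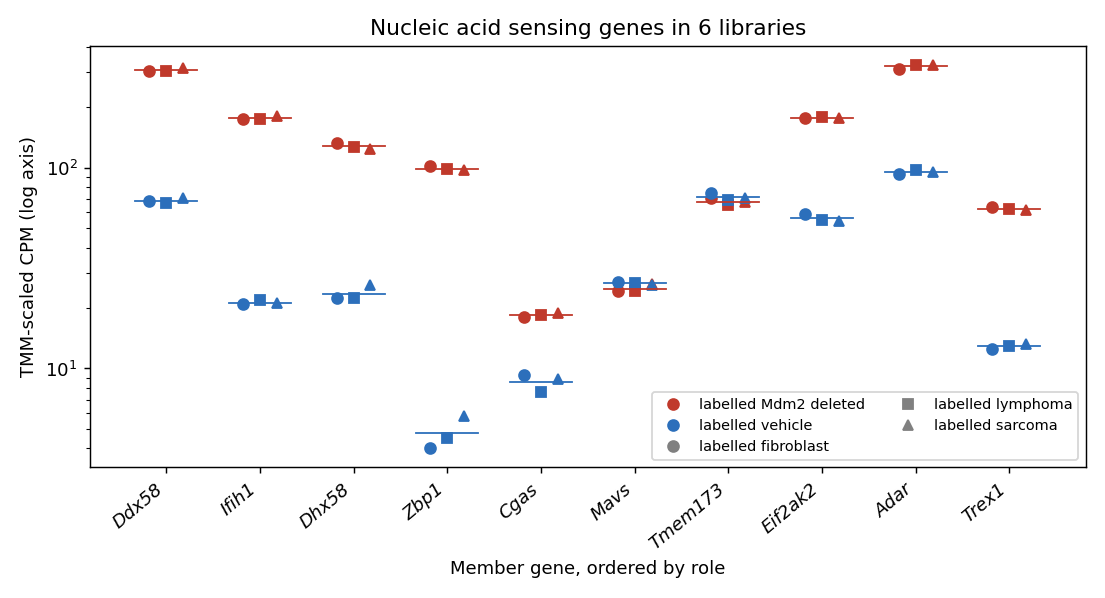
TMM-scaled CPM (log axis) of the 10 genes in each of the 6 libraries, coloured by labelled arm and shaped by labelled cell type, with a line at each arm's mean. The labelled deleted libraries lie above the vehicle libraries for 8 genes, and the arms overlap for Mavs and Tmem173.

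The adaptors through which the sensors signal were not called different. Mavs (ENSMUSG00000037523.13, chromosome 2, 131234063 to 131248025, plus strand), the mitochondrial adaptor of RIG-I and MDA5, stood at 24.4, 24.4 and 26.3 CPM in the labelled deleted libraries and at 26.9, 26.7 and 26.0 CPM in the vehicle libraries. The labelled sarcoma libraries fell inside the range of the other arm, so the arms overlapped. Its log2 fold change was -0.08 ± 0.06 SE (95% interval -0.21 to 0.04, edgeR adjusted p = 0.245). Tmem173 (ENSMUSG00000024349.10, chromosome 18, 35733679 to 35740554, minus strand), which encodes STING, stood at 70.3, 65.4 and 67.3 CPM against 75.0, 69.1 and 70.7 CPM. It was lower in each labelled deleted library than in its own vehicle partner, but the arms overlapped. Its log2 fold change was -0.08 ± 0.04 SE (95% interval -0.17 to 0.01, edgeR adjusted p = 0.110). Both intervals exclude a change of the size seen in Cgas, in either direction.

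Eif2ak2 encodes PKR, a kinase that binds double-stranded RNA and shuts down translation by phosphorylating the initiation factor eIF2 alpha. Eif2ak2 (ENSMUSG00000024079.4, chromosome 17, 78852564 to 78882573, minus strand) stood at 177, 178 and 176 CPM in the labelled deleted libraries and at 58.5, 55.2 and 54.0 CPM in the vehicle libraries. The labelled deleted libraries were nearly level, and the arms did not overlap. The shared difference was 3.17-fold (log2 1.67 ± 0.04 SE, edgeR adjusted p = 4.98e-11). Its antisense neighbour Gm26637 held 17 to 48 counts per library and was called higher as well (log2 1.28, edgeR adjusted p = 0.000336).

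Both brakes were higher too. Adar (ENSMUSG00000027951.16, chromosome 3, 89715022 to 89753446, plus strand) encodes the enzyme that edits adenosine to inosine in double-stranded RNA, which keeps the cell's own RNA from activating MDA5, PKR and ZBP1. It stood at 311, 324.4 and 324.1 CPM in the labelled deleted libraries, against 93.0, 97.5 and 94.7 CPM. The arms lay far apart with little spread in either, and Adar was 3.37-fold higher (log2 1.75 ± 0.04 SE, edgeR adjusted p = 2.49e-11). Trex1 (ENSMUSG00000049734.9, chromosome 9, 109057933 to 109059734, minus strand), an exonuclease that degrades cytosolic DNA, stood at 63.4, 62.2 and 61.6 CPM against 12.5, 12.9 and 13.2 CPM. Its arms did not overlap, and it was 4.84-fold higher (log2 2.27 ± 0.05 SE, edgeR adjusted p = 1.24e-11). Trex1 shares its strand and locus with Atrip, which stood at 24.4 to 25.9 CPM in the labelled deleted libraries and 22.4 to 23.9 CPM in the vehicle libraries and was not called (log2 0.12, edgeR adjusted p = 0.0817).

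Counted over the set, 8 of the 10 genes were called higher by edgeR and 0 lower, beside the 25% and 24.6% of all genes tested. At an unadjusted p under 0.05 the count of lower members was also 0, and DESeq2 and limma gave 0. All labelled deleted libraries lay above all vehicle libraries for 8 of the 10 genes and for 27.7% of all genes tested. At least a 2-fold higher value in every pair was found for 7 of the 10 genes, all of which had a mean of 5 CPM in every pair, and for 2.46% of the 10713 genes at that level. The median log2 fold change was 1.95 over the 10 genes and 0.015 over all genes tested.

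The order of the genes by size of difference was nearly the same in every labelled pair. Zbp1 was first in each, followed by Ifih1, Dhx58, Trex1, Ddx58, Adar, Eif2ak2 and Cgas. Those 8 genes held the same place in all 3 pairs, and Mavs and Tmem173 exchanged the last places. The pairs share no library, but libraries of one arm had similar mesenchymal marker sums whatever their label. The repeated order therefore does not show agreement between distinct cell types, and it is a description of these 6 libraries.

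**Figure D2:**
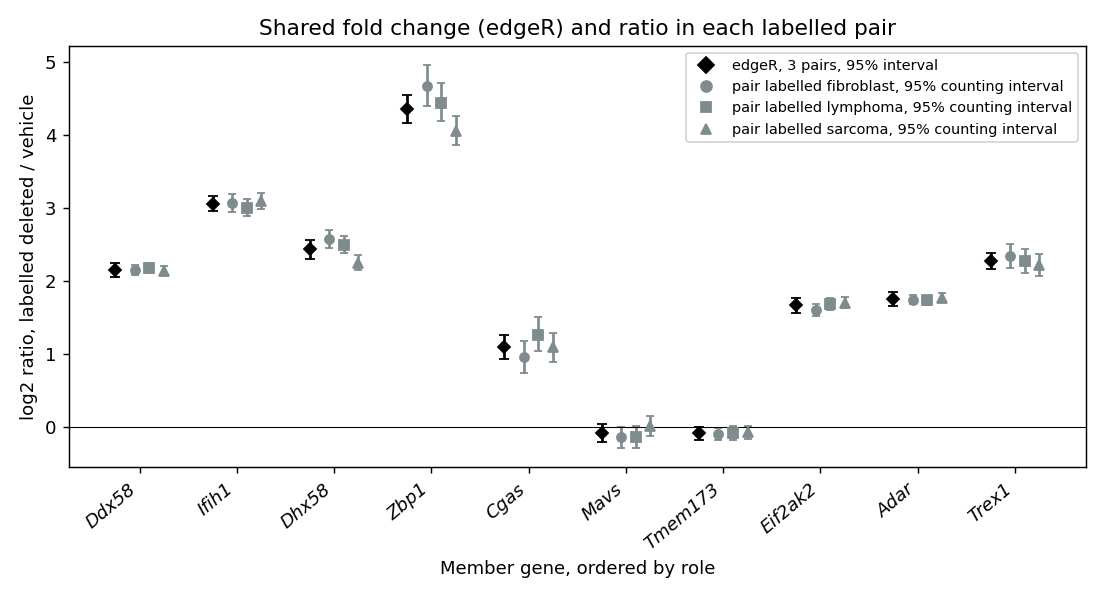
Log2 ratio of the libraries labelled deleted to those labelled vehicle for each gene: black diamonds are the edgeR shared fold change with its 95% interval, and grey symbols are the ratios within the 3 labelled pairs with 95% counting intervals. Zbp1 spans the widest range between pairs (16.7-fold to 25.5-fold), and the intervals of Mavs and Tmem173 reach across or close to 0.

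Cell type markers moved between the arms as well, and their part in the differences was not tested. The summed level of 8 mesenchymal markers was 7462 to 7623 CPM in the labelled deleted libraries and 13140 to 13600 CPM in the vehicle libraries. The T cell list summed to 3.72 to 4.30 CPM against 1.89 to 2.23 CPM, nearly all of it Lck, and the leukocyte and myeloid list to 26.1 to 29.4 CPM against 26.4 to 28.1 CPM, with only Cd68 and Cd14 of 8 genes at 1 CPM. Most of that sum is Cd14, which was called lower, whereas Cd68 and the scarce Csf1r (at most 22 counts per library) and Itgam (at most 29 counts) were called higher. Csf1r and Itgam passed the filter on low counts only through the labelled deleted arm, which limits their calls. Of 4 plasmacytoid dendritic cell markers, 3 reached 1 CPM and the list summed to 475 to 497 CPM against 200 to 204 CPM. Its members went in different directions. Bst2, which interferon induces in many cell types, was called higher, at 370 to 379 CPM against 38.0 to 44.5 CPM. Tcf4, the largest part of the vehicle sum, was called lower, at 99.4 to 114 CPM against 159 to 163.5 CPM. Spib was called higher, at 2.95 to 3.01 CPM against 0.473 to 0.584 CPM, and the defining marker Siglech had at most 1 count in a library. B cell and epithelial lists summed to at most 0.722 CPM, and the endothelial list to 0.848 to 1.23 CPM against 0.176 to 0.270 CPM. In bulk RNA a change in the share of a cell type and a change in RNA per cell cannot be told apart.

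Levels of different genes were compared by deposited TPM, which corrects for target length. In the vehicle arm Tmem173 was the highest of the 10 genes in every library, at 31.7 ± 1.60 TPM (mean ± SD, n = 3), followed by Eif2ak2 at 17.4 ± 0.84 TPM. Adar (12.2 ± 0.22 TPM), Mavs (11.9 ± 1.37 TPM) and Ddx58 (11.3 ± 0.39 TPM) came next. Mavs overlapped both of its neighbours in this order, while Adar lay above Ddx58 in every vehicle library. Trex1 followed at 7.10 ± 0.16 TPM, then Dhx58 at 5.41 ± 0.46 and Zbp1 at 4.32 ± 0.83 TPM, which overlapped, and Ifih1 at 3.13 ± 0.05 and Cgas at 2.82 ± 0.31 TPM, which also overlapped.

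The order in the labelled deleted arm was different. Zbp1 came first in all 3 libraries at 85.3 ± 3.98 TPM (mean ± SD, n = 3), followed by Eif2ak2 at 56.3 ± 3.61 and Ddx58 at 51.3 ± 2.51 TPM, which overlapped. Adar stood at 42.1 ± 3.12 TPM and Trex1 at 35.2 ± 2.03 TPM. Tmem173 (30.5 ± 1.08 TPM), Dhx58 (29.95 ± 1.94 TPM) and Ifih1 (26.7 ± 1.37 TPM) formed a group in which each overlapped its neighbour. Mavs at 11.7 ± 1.51 TPM and Cgas at 6.18 ± 0.42 TPM were the lowest. Tmem173 therefore went from place 1 to place 6 or 7 without being called different itself.

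The place of Zbp1 depends on the target length used. Most of its TPM was assigned to a short target of 564 bases (67.1 TPM of 82.6 TPM in the library labelled fibroblast deleted, against 15.5 TPM for the longer target of 1236 bases). When CPM was divided by the length of the longest target of each gene, a setting added after the data were seen, Zbp1 took place 4 in every labelled deleted library and place 10 in every vehicle library. Eif2ak2, Ddx58 and Adar then took places 1 to 3 of the labelled deleted arm. Tmem173 still came first in every vehicle library and then took place 7. Mavs TPM also rests partly on few counts, since a target of 210 bases gave 2.23 to 5.30 TPM to a library from 9.36 to 30.1 estimated counts. By the longest target Mavs lay below Ddx58 in every vehicle library.

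Ratios of TPM within a library describe how sensor and partner levels shifted against each other. Ddx58 and Ifih1 together came to 1.21 ± 0.11 TPM per TPM of Mavs in the vehicle arm and to 6.72 ± 0.625 in the labelled deleted arm (mean ± SD, n = 3 each). With counts per kilobase of the longest target these values were 1.80 ± 0.069 and 10.1 ± 0.262. Cgas per Tmem173 went from 0.0889 ± 0.0061 to 0.202 ± 0.016, and Trex1 per Cgas from 2.54 ± 0.298 to 5.71 ± 0.414. Adar per Ifih1 went the other way, from 3.90 ± 0.0089 to 1.58 ± 0.036. Zbp1 per Adar went from 0.354 ± 0.069 to 2.03 ± 0.057, a ratio that carries the same length dependence as the Zbp1 level. None of these ratios overlapped between arms, which follows from the differences already given for the single genes and is not a separate result.

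**Figure D3:**
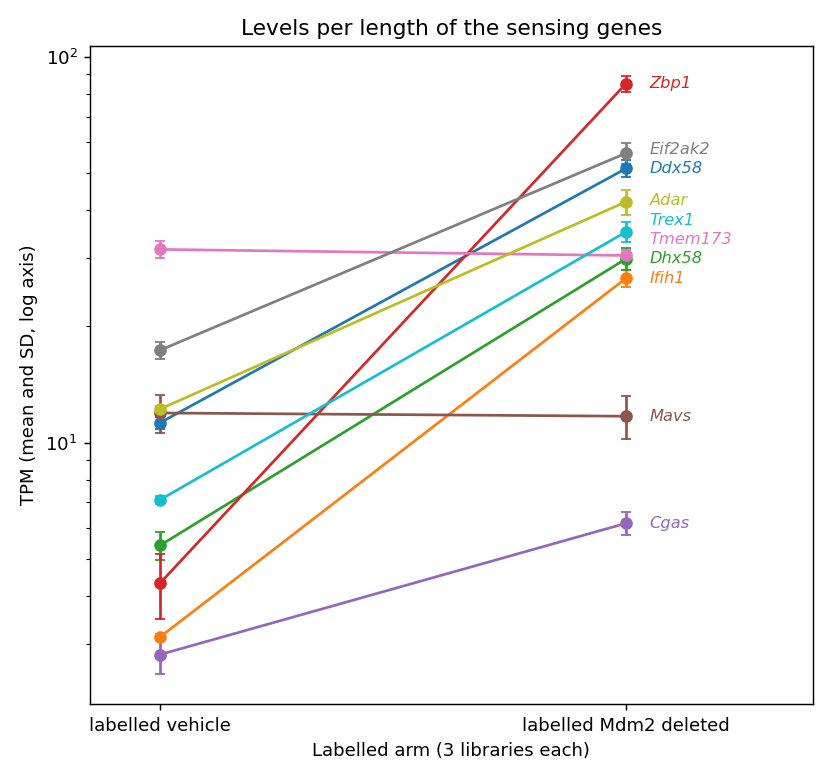
Mean TPM with SD (n = 3 libraries per labelled arm, log axis) of each gene, joined by a line from the vehicle arm to the labelled deleted arm. Zbp1 goes from 4.32 to 85.3 TPM and crosses the other genes, while Tmem173 and Mavs run level.

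The Adar transcripts were examined apart, because the gene makes a long form that interferon induces and a short form that is made constitutively from another start site. Adar-201 (3459 bases) stood at 152.5, 160.0 and 149.8 CPM in the labelled deleted libraries, against 43.8, 50.7 and 49.8 CPM. It was called higher (log2 1.68 ± 0.05 SE, edgeR over all transcripts, adjusted p = 0.00091). Adar-203 (3537 bases) stood at 157.8, 164.6 and 174.7 CPM against 49.3, 46.9 and 45.2 CPM and was called higher as well (log2 1.81 ± 0.06 SE, edgeR adjusted p = 0.00115). Of all 31117 transcripts tested, 8.76% were called higher.

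The split between the long targets did not differ beyond its spread. Adar-203 held 50.7%, 50.7% and 53.8% of the Adar count in the labelled deleted libraries and 52.9%, 48.1% and 47.6% in the vehicle libraries, so the arms overlapped. The means were 51.8% ± 1.80 and 49.5% ± 2.94 (SD, n = 3 each), a difference of 2.23 points with a two-sided exact permutation p of 0.3, where 3 against 3 libraries cannot give less than 0.1. Both targets code for long forms and differ by 78 bases.

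Adar-202 (2793 bases), the annotated short form, was given under 0.001 estimated counts in every library, which round to 0, and this value cannot be read as its absence. Its target is wholly contained in Adar-203 and, like the other Adar targets, holds coding sequence only. Of the 744 coding bases that both long targets hold and the coding part of Adar-202 lacks, 716 lie inside an annotated exon of the Adar-202 transcript, before its own start codon. Only 28 bases lie in no exon of Adar-202. Reads from a short-form RNA would therefore also fall on most of the stretch that separates the targets. The Adar window with a match to the shorter core, printed above, belongs to the start site of the long targets, and the other Adar windows, near the start of Adar-202, held no match.

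Zbp1 also has a longer and a shorter target, and both were higher. Zbp1-201 (1236 bases) stood at 39.2, 35.3 and 30.3 CPM in the labelled deleted libraries against 1.09, 1.18 and 1.54 CPM (log2 4.74 ± 0.18 SE, edgeR adjusted p = 0.00142). Zbp1-202 (564 bases) stood at 62.8, 63.0 and 66.7 CPM against 2.92, 3.35 and 4.29 CPM (log2 4.19 ± 0.11 SE, edgeR adjusted p = 0.000534). The shorter target held 64.8% ± 3.64 of the gene's count in the labelled deleted arm and 73.6% ± 0.643 in the vehicle arm (SD, n = 3 each), with no overlap between arms. This difference in share was not tested, and the split is made by likelihood with no error in the files. Among the other genes, Ddx58-201 and Ifih1-201 held at least 97.9% of their gene's count in each library and Cgas-202 held 84.6% to 99.2%, while the paired targets of Trex1 (201 and 202) and of Mavs (201 and 202) are identical in sequence and were split evenly.

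**Figure D4:**
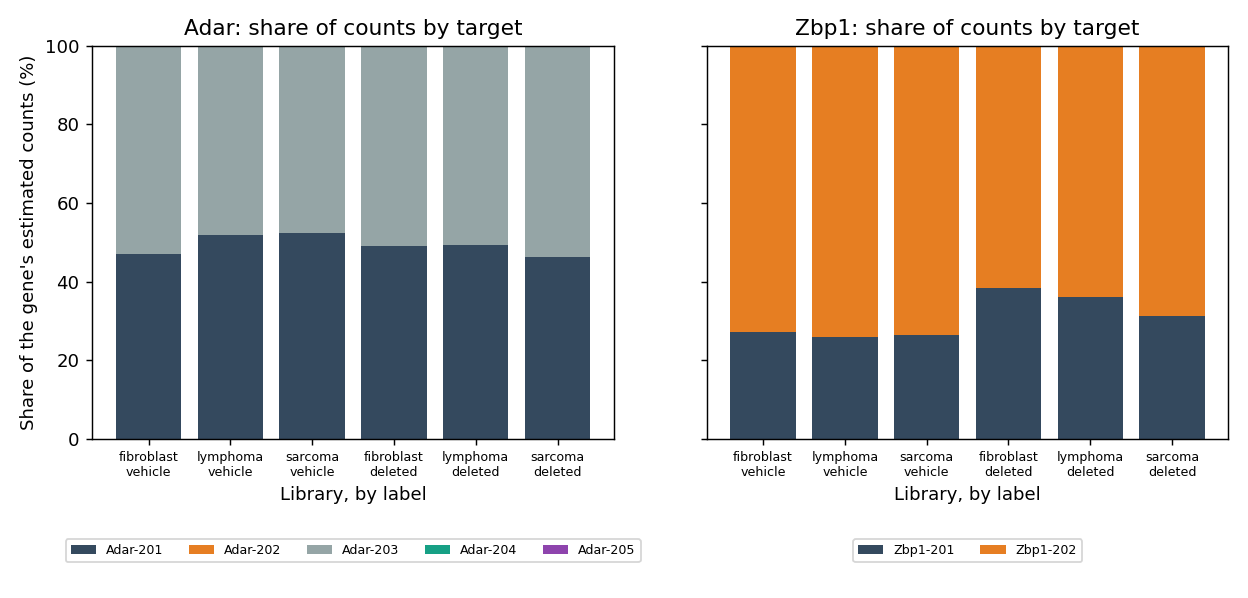
Share (%) of the gene's estimated counts assigned to each target of Adar (left) and Zbp1 (right) in each library, vehicle libraries first. Adar is split about evenly between Adar-201 and Adar-203 in both arms, and the share of the shorter Zbp1-202 is 61.6% to 68.8% in the labelled deleted libraries and 72.9% to 74.2% in the vehicle libraries.

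The rest of the sensing pathways was read from 123 other genes, chosen by role with earlier results of these data known. Of the 123 genes, 115 were tested. Of these, 61 were called higher (25% of all genes tested were), 17 lower (24.6% of all genes) and 37 neither, with a median log2 fold change of 0.17. Both counts depend on the test and the genes entered. DESeq2 called 54 higher and 11 lower, and limma on log2(TPM + 1) called 46 and 6. With protein-coding genes only, edgeR called 70 higher and 16 lower. Because the lists were chosen in this way, the shares of all genes are not an unbiased comparison for them. Each named gene is one of the 3 largest called increases or 2 largest called decreases of its list.

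The list of cofactors and regulators of the RNA receptors also holds Pqbp1, which acts with cGAS. Its genes were mostly higher or not called: 12 of 21 were higher, 2 lower and 7 neither (median log2 0.23). Of all genes tested, 25% were called higher and 24.6% lower. Ddx60, a helicase reported to promote RIG-I signalling, went from 8.77 ± 0.34 to 98.2 ± 3.90 CPM (mean ± SD, n = 3 per arm, log2 3.48 ± 0.05 SE). Znfx1, an RNA helicase that binds MAVS, went from 86.2 ± 3.2 to 461 ± 13.0 CPM (log2 2.42 ± 0.04 SE), and Trim25, the ubiquitin ligase of RIG-I, from 47.4 ± 2.94 to 143.6 ± 5.65 CPM (log2 1.60 ± 0.04 SE). On the lower side were Polr3f, a subunit of the RNA polymerase that transcribes cytosolic DNA into RIG-I ligands (log2 -0.35 ± 0.05 SE), and Pqbp1, a cofactor of cGAS (log2 -0.34 ± 0.05 SE). The Pqbp1 call was lost with limma on log2(TPM + 1).

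Around MAVS, 9 of 18 genes were higher, 3 lower and 6 neither (median log2 0.20), beside 25% of all genes higher and 24.6% lower. Ifit3, an interferon-induced protein that bridges MAVS and TBK1, went from 43.4 ± 3.34 to 1059 ± 24.4 CPM (log2 4.61 ± 0.05 SE), although its reads can be shared with the near-identical Ifit3b. Nlrc5 rose from 95.7 ± 1.48 to 227 ± 3.25 CPM (log2 1.25 ± 0.04 SE) and March5, a mitochondrial ubiquitin ligase, from 49.9 ± 1.80 to 101 ± 0.61 CPM (log2 1.02 ± 0.04 SE). Tradd, an adaptor of MAVS and death receptor signalling, was lower (log2 -0.64 ± 0.08 SE). Nlrx1, a mitochondrial inhibitor of MAVS, stood at only 1.12 ± 0.23 CPM against 1.75 ± 0.23 CPM (log2 -0.66 ± 0.21 SE). The Nlrx1 call was lost without the pair labelled lymphoma, without the pair labelled sarcoma, and with DESeq2 or limma.

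In the list of DNA sensing and STING signalling, 7 of 23 genes were higher, 6 lower and 10 neither (median log2 -0.05), beside 25% of all genes called higher and 24.6% called lower. Ifi204, a DNA sensor of a family with closely related copies, rose from 126 ± 3.62 to 393 ± 4.04 CPM (log2 1.64 ± 0.04 SE), and Trim56, a ubiquitin ligase that acts on STING and cGAS, from 35.9 ± 1.68 to 67.8 ± 2.30 CPM (log2 0.92 ± 0.04 SE). Aim2, an inflammasome DNA sensor, was barely present at 0.572 ± 0.043 CPM against 0.183 ± 0.052 CPM (log2 1.60 ± 0.35 SE), and its call was lost with DESeq2. Aim2 passed the filter on low counts only through the labelled deleted arm, which also limits its call. Enpp1, which degrades the cyclic dinucleotide made by cGAS, fell from 43.8 ± 1.59 to 27.4 ± 1.54 CPM (log2 -0.68 ± 0.05 SE). Hmgb1, a chromatin protein that binds DNA, fell from 619 ± 45.9 to 458 ± 7.04 CPM (log2 -0.43 ± 0.05 SE).

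Kinases and transcription factors downstream of both adaptors were higher for 10 of 14 genes, lower for 1 and neither for 3 (median log2 0.43). The shares of all genes tested were 25% higher and 24.6% lower. Irf7, the interferon-inducible factor that amplifies interferon production, rose from 19.4 ± 0.35 to 192 ± 1.76 CPM (log2 3.31 ± 0.05 SE), Irf5 from 3.63 ± 0.48 to 22.4 ± 1.07 CPM (log2 2.63 ± 0.08 SE) and Irf1 from 60.1 ± 1.41 to 183 ± 2.02 CPM (log2 1.61 ± 0.04 SE). The single gene called lower was Irf3, the factor that TBK1 phosphorylates after sensing, which went from 24.6 ± 2.54 to 17.7 ± 1.37 CPM (log2 -0.47 ± 0.06 SE).

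The double-stranded RNA kinase branch and its necroptosis partners gave 6 of 14 genes higher, 1 lower and 7 neither (median log2 0.06). Among all genes tested, 25% were called higher and 24.6% lower. Mlkl, which executes necroptosis, rose from 43.9 ± 1.43 to 94.7 ± 2.12 CPM (log2 1.11 ± 0.04 SE), and Ppp1r15a, which directs the dephosphorylation of eIF2 alpha, from 22.1 ± 1.26 to 35.4 ± 0.65 CPM (log2 0.68 ± 0.06 SE). Eif2s1, which encodes eIF2 alpha itself, differed by a small amount (log2 0.30 ± 0.04 SE). Prkra, an activator of PKR, fell from 32.3 ± 0.50 to 20.2 ± 0.70 CPM (log2 -0.68 ± 0.05 SE).

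Enzymes that clear nucleic acids gave 8 of 16 tested genes higher, 4 lower and 4 neither (median log2 0.24), with 3 further genes too low to test. Over all genes tested, 25% were called higher and 24.6% lower, so the lower count was near the share of all genes. Pnpt1, a mitochondrial exoribonuclease, rose from 65.0 ± 1.81 to 184 ± 3.90 CPM (log2 1.499 ± 0.04 SE). Samhd1, which depletes deoxynucleotides, rose from 70.4 ± 4.01 to 174 ± 0.64 CPM (log2 1.31 ± 0.04 SE), and Mov10, an RNA helicase, from 131 ± 6.21 to 216.5 ± 8.98 CPM (log2 0.72 ± 0.04 SE). Of the ribonuclease H2 subunits, Rnaseh2c (log2 -0.31 ± 0.05 SE) and Rnaseh2a (log2 -0.20 ± 0.05 SE) were called lower, and Rnaseh2b was not called (log2 0.145 ± 0.063 SE). The Rnaseh2c call was lost with limma on log2(TPM + 1), and the Rnaseh2a call with limma and with DESeq2.

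Interferon and cytokine genes that the pathways switch on had the highest median of the 7 lists. All 9 of the 14 that could be tested were higher (median log2 4.39), beside 25% of all genes tested. Ifna4, Ifna2, Ifnl2, Ifnl3 and Tnf were too low to test. Cxcl10, a chemokine, went from 6.69 ± 0.86 to 393 ± 45.7 CPM (log2 5.88 ± 0.05 SE), and Rsad2, an antiviral enzyme, from 6.21 ± 0.95 to 192 ± 3.36 CPM (log2 4.94 ± 0.07 SE). Ifnb1, the type I interferon that these sensors induce first, had 49, 38 and 57 counts in the labelled deleted libraries against 2, 1 and 1 counts. It was called higher (log2 5.24 ± 0.38 SE, edgeR adjusted p = 5.97e-07), and the pair ratios were 23.7 (95% counting interval 6.21 to 201), 42.3 (7.15 to 1714) and 77.5 (13.4 to 3116). Ifnb1 passed the filter on low counts only through the labelled deleted arm, which limits this call. The call was kept without that filter.

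**Figure D5:**
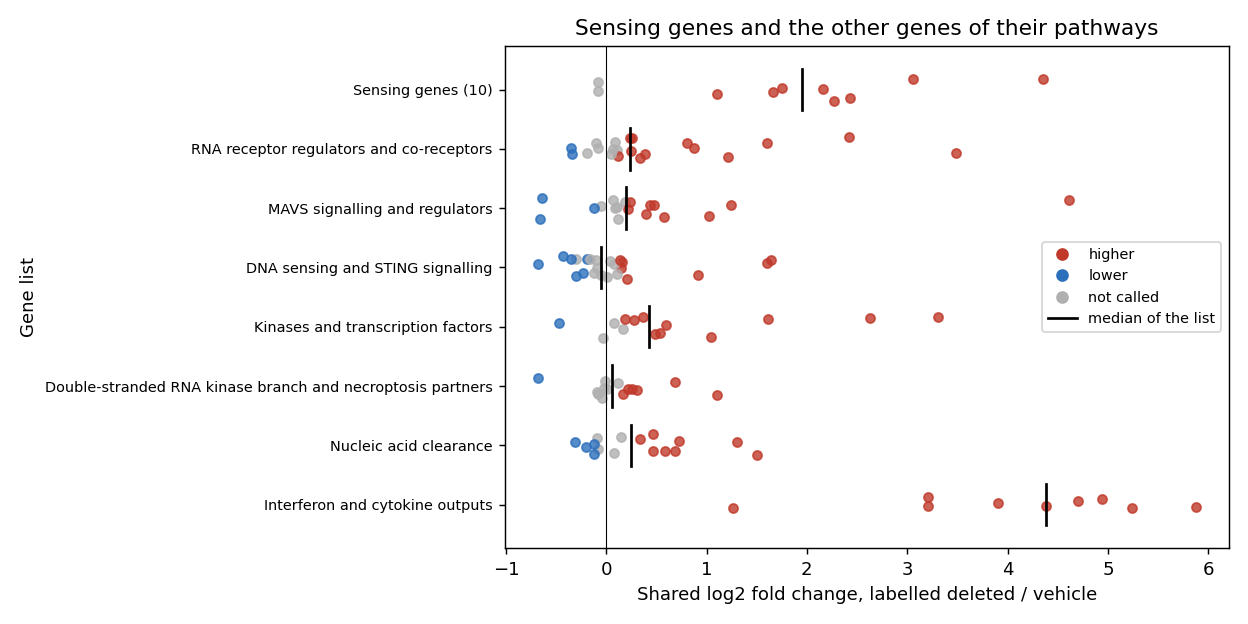
Shared log2 fold change (edgeR) of the 10 sensing genes and of the tested genes in 7 pathway lists, 1 point per gene, coloured by call, with a black line at each list's median. The median is 1.95 for the sensing genes, between -0.05 and 0.43 for the 6 lists of signalling and clearance genes, and 4.39 for the outputs.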

How the data were processed

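The 6 libraries, grouped by the labels, were made with a stranded kit from total RNA depleted of ribosomal RNA. The authors deposited estimated counts and TPM per transcript, made with kallisto 0.43.0 on GRCm38 per the submitters' processing notes. The transcript set and the strand setting are not given in the sources used here. Targets (76055) were joined by identifier to GENCODE M21, and 75049 matched. Estimated counts were summed per gene and rounded. The values of the coding targets exclude reads in untranslated regions.

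The shared effect was tested with edgeR 4.0.16 (quasi-likelihood, two-sided, TMM, filterByExpr by arm, cell type label as block, Benjamini-Hochberg adjusted p under 0.05 over all genes). This left 2 residual degrees of freedom and 9.23 prior degrees of freedom. The SE is the absolute log2 fold change divided by the square root of F. The pairing comes from the labels. Pair ratios carry exact 95% Clopper-Pearson intervals, which cover counting error only. Alternatives used DESeq2 1.42.0, limma 3.58.1 on log2(TPM + 1), other scalings and filters, no block, and each pair left out. Tools were R 4.3.3 and Python 3.11.15 with scipy 1.17.1, numpy 2.4.6 and pandas 2.3.3.

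All 10 genes are named. Of each pathway list, the 3 largest called increases and the 2 largest called decreases are named. The genes and lists were chosen with earlier results of these data known. A further promoter motif is not reported here.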

Additional observations from a re-analysis of the deposited data

How the results depend on the processing

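The counts of sensing genes called higher (8) and lower (0) were the same under DESeq2 size factors, no filter on low counts, no cell type block, protein-coding genes only, DESeq2, limma on log2(TPM + 1) and each pair left out. Leaving out a pair leaves 1 residual degree of freedom. Without one pair each, pathway genes called higher ranged from 57 to 63 and called lower from 12 to 19, with the lowest values without the pair labelled lymphoma. Pathway genes called higher went from 61 to 54 with DESeq2, to 46 with limma on log2(TPM + 1) and to 70 with protein-coding genes only. Those called lower went from 17 to 11 with DESeq2 and to 6 with limma on log2(TPM + 1). The cause was not tested. Over all genes edgeR called 3981 higher and 3920 lower, DESeq2 2541 and 2488, and limma 2352 and 1552, so the share of calls that were higher was 50.4%, 50.5% and 60.2%. With deposited TPM, 8 of 30 pair ratios moved beyond their counting interval, 7 of them in the pair labelled lymphoma. There Mavs came to 1.26 and Tmem173 to 1.04, and in the pair labelled sarcoma Mavs came to 0.781. With counts per kilobase of the longest target, 31 of the 60 places by level stayed. One library per group, labels that the markers do not bear out and coding-only targets limit what these values can show.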

Other observations

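Partners that act directly beside the sensing genes were looked up after their values had been seen. Ripk3, the kinase through which ZBP1 triggers necroptosis, was not called (log2 fold change -0.03, edgeR), nor were the kinase Ikbke (log2 0.17) and the RNA editing enzyme Adarb1 (log2 -0.01), a relative of Adar. Of the other eIF2 alpha kinases, Eif2ak1 was called slightly higher (log2 0.22), a call lost without the pair labelled lymphoma, without the pair labelled sarcoma, and with DESeq2 or limma. Eif2ak3 (log2 -0.04) and Eif2ak4 (log2 -0.09) were not called. Tbk1, the kinase shared by the MAVS and STING branches, was called higher at log2 0.37.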
